A study of Mus musculus with 4 samples.

Results

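Axon guidance cues and their receptors were examined in the hippocampus of mice after tibial fracture surgery. The group was every protein-coding gene of the deposited count table whose symbol is that of a semaphorin, plexin, ephrin, Eph receptor, Slit, Robo or numbered netrin, which gave 61 of 29300 genes: 20 semaphorins, 9 plexins, 5 A-type and 3 B-type ephrins, 9 EphA and 5 EphB receptors, 3 Slits, 4 Robo receptors and 3 netrins. Their share of all counts was 0.443% in control 1 and 0.437% in control 2, against 0.392% in surgery 1 and 0.388% in surgery 2. Of the 61, 60 had enough counts to be tested, and Efna4, an A-type ephrin with 5 and 6 counts in the control mice and with 5 and 12 counts in the surgery mice, did not.

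All mice were male C57BL/6 mice of 7 to 8 months, and hippocampal RNA was taken on day 1. Control mice received the anesthesia (isoflurane) and the analgesic (tramadol) without surgery, which the labels call sham. Surgery mice received the same and an open fracture of the tibial shaft fixed with an intramedullary nail, the procedure used to model perioperative neurocognitive disorder (PND). With 2 mice in each group, the p-values rest on the spread between mice of the same group, together with its trend over all genes. The comparison asks which transcripts of the hippocampus differed 1 day after the operation. Library totals ran from 15763432 to 18573386 counts, and the hippocampal subfield markers (Prox1, C1ql2, Wfs1, Fibcd1, Iyd, Zbtb20 and Neurod6) summed to between 1006 and 1126 CPM (counts scaled to a common library total) in every library, with none at 0. Within that list Wfs1 and Fibcd1 fell (log2 fold changes -0.70 and -0.64, edgeR adjusted p = 0.0085 and 0.0043) and Zbtb20 and Neurod6 rose (0.44 and 0.53, adjusted p = 0.012 and 0.029), and all 4 calls were lost with length and GC trends removed (adjusted p of 0.059 to 0.71). Control 1 held 126 CPM of choroid plexus markers in sum, against 2021 to 5387 CPM in the other mice, and surgery 2 held 158 CPM of meningeal fibroblast markers, against 63.0 to 66.7 CPM in the others. Mitochondrially encoded genes took 2.53% to 2.82% of counts in control mice and 4.45% to 4.49% in surgery mice. In bulk tissue, fewer cells of a type and less RNA per cell cannot be told apart.

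Guidance molecules steer growing axons by attraction or repulsion, and in the adult hippocampus many of them remain at synapses. Semaphorins signal mainly through plexins, and most class 3 semaphorins also need neuropilins. Slits bind Robo receptors, netrins bind DCC and the UNC5 family, and ephrins, which are themselves membrane-bound, bind Eph receptor tyrosine kinases on a neighboring cell. These signals converge on the actin cytoskeleton.

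On balance the members lay below zero in the surgery mice, and the calls of both directions followed transcript GC content. Slit1 and Slit3, the receptors Ephb6, Ephb3, Epha6, Epha10 and Plxna1, the semaphorins Sema7a, Sema6b, Sema4f and Sema4d and the ephrin Efnb3 fell, by 16.4% to 34.1%. The semaphorins Sema3a and Sema3d and the ephrin Efna5 rose, by 1.55-fold to 2.22-fold, each from a level under 6 CPM. Thus 3 of 60 members rose (5%) and 12 fell (20%), where 13.1% of all 17144 genes tested rose and 12.8% fell (edgeR quasi-likelihood test, Benjamini-Hochberg adjusted p under 0.05). The share of members that rose was below that background and the share that fell was above it. Without control 1, control 2 or surgery 2, no member rose, where 6.72% to 10% of all genes did. Whichever mouse was left out, 11 to 15 members fell, beside 6.75% to 11.6% of all genes. Those were not the same members in each fit, and Ephb3, Epha6, Epha10 and Sema4d lost their call in some or all of them. The fits without control 1, control 2 or surgery 1 tested 61 members. The median log2 fold change was -0.24 over the 60 members and 0.01 over all genes tested, and 38 of the 60 were negative. The median of the members was -0.071 without control 2 and -0.15 without surgery 1. Excitatory neuron markers (5 of 5 detected) summed to 6972 to 7154 CPM in the control mice and 5848 to 5928 CPM in the surgery mice, and astrocyte markers (6 of 6 detected) to 3305 to 3557 CPM and 3883 to 4105 CPM. The astrocyte list did not move as one, with Slc1a2, its most abundant gene, at 0.29 and Aldh1l1 at -0.49 on the log2 scale. Their part in the members' levels was not tested. When each library's trends over transcript length and GC were removed, none of the 60 passed in either direction by the same edgeR test, where 0.689% of all genes rose and 1.73% fell, and the number of members with an unadjusted p under 0.05 was 11, beside 3859 of 17120 genes, against 27 before, beside 6748 of 17144 genes.

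**Figure D1:**
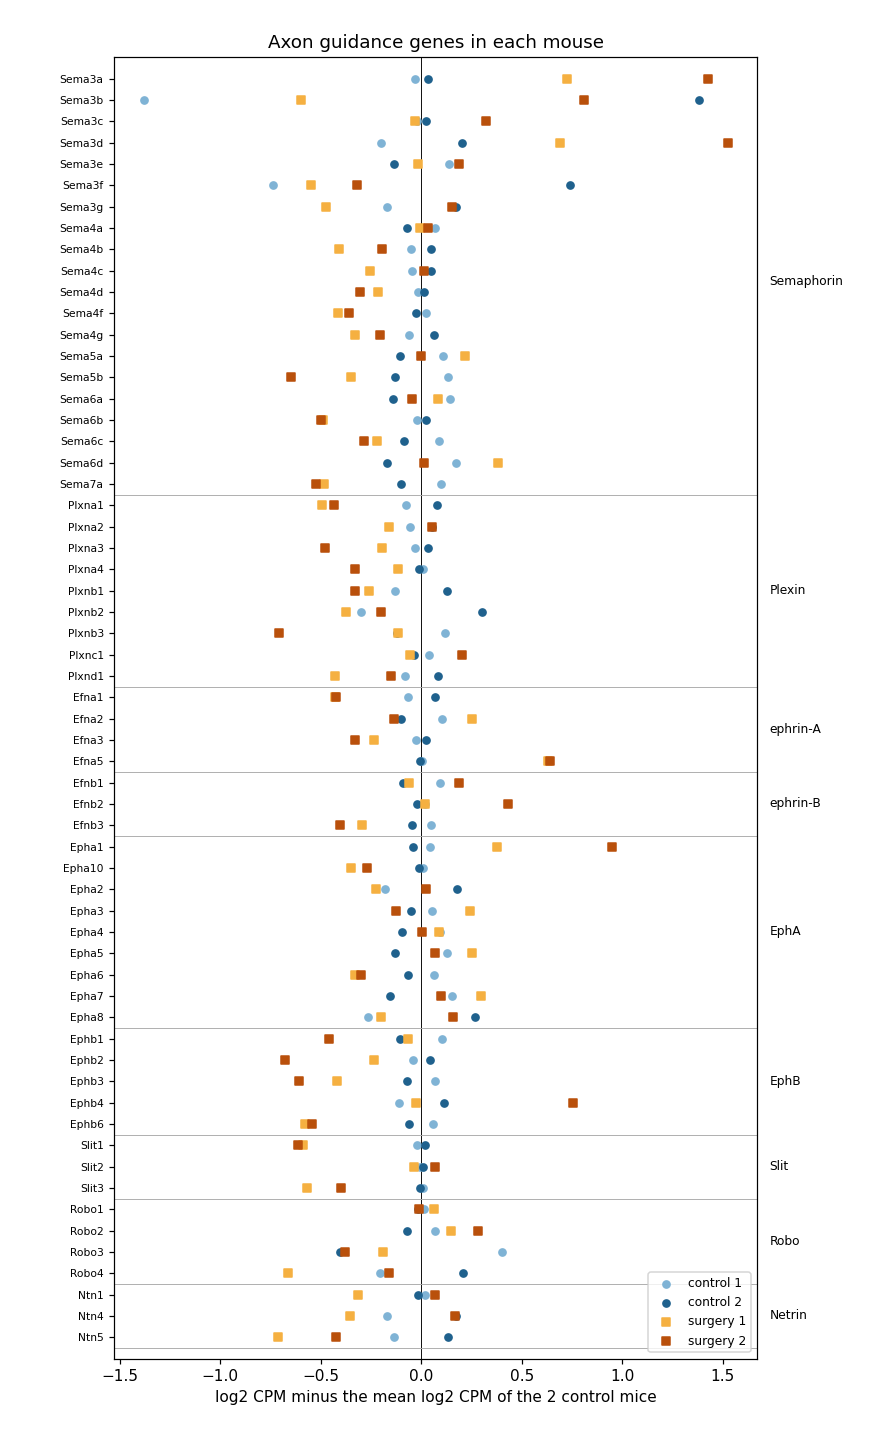
Level of each of the 60 tested members in each mouse, as log2 CPM minus the mean log2 CPM of the 2 control mice, with circles for control mice and squares for surgery mice, grouped by family. Both surgery mice lie to the left of both control mice for 24 members and to the right for 5.

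Groups did not overlap, with both surgery mice below both control mice, for 24 of the 60 members, beside 32.2% of all genes tested. They did so in the other direction for 5 members, beside 33.2% of all genes. At the fold thresholds the study used (at least 1.5 or at most 0.67) together with the adjusted p, the 3 members that rose remained, beside 6.75% of all genes, and Slit1 was the only one of the 12 that fell, beside 2.25% of all genes. Ligands accounted for all 3 rises and 7 of the 12 falls among 33 tested, and receptors for 5 falls among 27. Whether ligands differed from receptors was not tested.

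The promoters of a pair of Slits and a pair of semaphorins are shown because each pair holds a member that fell next to one that did not. Slit3 fell and Slit2 did not pass the test, and Sema7a fell while Sema3d rose. The sequences are the 250 bases before the RefSeq transcript start on assembly GRCm38.p6, 5′ to 3′, with each CpG dinucleotide (the letters CG, which read the same on both strands) in capitals.

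Slit2, chr5:47982905-47983154, plus strand: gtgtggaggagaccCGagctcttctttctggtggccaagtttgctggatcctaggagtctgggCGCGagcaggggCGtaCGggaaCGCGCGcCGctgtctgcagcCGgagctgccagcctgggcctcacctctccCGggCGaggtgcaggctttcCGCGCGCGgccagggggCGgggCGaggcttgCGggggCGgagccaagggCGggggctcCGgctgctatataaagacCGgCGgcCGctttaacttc

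Slit3, chr11:35121206-35121455, plus strand: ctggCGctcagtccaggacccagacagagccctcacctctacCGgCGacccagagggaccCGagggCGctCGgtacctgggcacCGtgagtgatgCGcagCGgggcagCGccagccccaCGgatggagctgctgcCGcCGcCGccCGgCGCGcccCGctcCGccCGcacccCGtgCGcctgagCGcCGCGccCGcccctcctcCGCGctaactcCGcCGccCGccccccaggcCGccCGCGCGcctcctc

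Sema7a, chr9:57939862-57940111, plus strand: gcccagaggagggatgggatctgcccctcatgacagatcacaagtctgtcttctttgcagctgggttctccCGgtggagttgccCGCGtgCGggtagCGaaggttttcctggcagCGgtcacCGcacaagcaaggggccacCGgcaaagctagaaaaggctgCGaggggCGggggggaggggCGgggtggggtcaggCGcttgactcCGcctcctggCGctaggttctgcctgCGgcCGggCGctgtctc

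Sema3d, chr5:12382916-12383165, plus strand: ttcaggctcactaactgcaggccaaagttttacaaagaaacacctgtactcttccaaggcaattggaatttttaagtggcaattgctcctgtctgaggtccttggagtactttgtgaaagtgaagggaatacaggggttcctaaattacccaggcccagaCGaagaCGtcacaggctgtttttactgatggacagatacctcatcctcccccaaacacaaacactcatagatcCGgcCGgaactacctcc

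These windows held 25 CpG dinucleotides for Slit2, 35 for Slit3, 17 for Sema7a and 4 for Sema3d, with a GC content of 69.6%, 78.8%, 66.4% and 46.8%. Of the 2 Slits shown, Slit3 fell and Slit2 did not pass, and the part of promoter CpG in this was not tested. Of the 61 members, 53 had an entry in the RefSeq promoter table, with 69 promoters among them. Efnb3, Ntn1, Plxna1, Plxna4, Sema3b, Sema3f, Sema6a and Slit1 had none. The median was 15 CpG in the promoters of members and 6 in all 32851 promoters, of which 92.1% held at least 1. It was 15.5 in the 12 promoters of 9 members that fell and 15 in the 53 promoters of 40 members that did not pass the test, and 4 in the 3 promoters of the members that rose. The first 2 of these medians were thus close, and the third rests on 3 promoters, with 2 (Sema3a), 4 (Sema3d) and 32 (Efna5) CpG. The Sema3a promoter of that table lies inside the gene, at chr5:13396534-13396783. At least 8 CpG were held by 58.3% of the promoters of members that fell. The share was 81.1% for members that did not pass and 33.3% for those that rose.

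Slits are secreted ligands of Robo receptors that repel axons, and they contained the member with the highest level per kilobase of all 60, Slit1. Slit1 (ENSMUSG00000025020; chr19:41600257-41743665 on mm10, minus strand) stood at 507 and 520.1 CPM in the control mice and 341 and 335 CPM in the surgery mice. The surgery mice were both lower, and the gap between groups was far wider than the spread within either. The log2 fold change was -0.60 (SE 0.055, edgeR quasi-likelihood adjusted p = 0.0043), a fall of 34.1%. Of the members' own counts, Slit1 took 11.2% and 11.7% in the control mice but 8.80% in each surgery mouse. With the length and GC trends removed its log2 fold change was -0.33 (adjusted p = 0.052).

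Slit3 (chr11:35121224-35708507) stood at 110.4 and 109.5 CPM in the control mice and 74.2 and 83.4 CPM in the surgery mice, a log2 fold change of -0.48 (SE 0.078, edgeR adjusted p = 0.0080). Its groups did not overlap either. Slit2 (chr5:47983138-48307733), named here after its values were seen, stood at 54.3 and 54.8 CPM in the control mice and 53.2 and 57.2 CPM in the surgery mice. Its groups overlapped, and the log2 fold change was 0.02 (SE 0.077, edgeR adjusted p = 0.90). The 3 Slits differed in the GC content of their transcripts, at 58.9% for Slit1, 56.8% for Slit3 and 45.5% for Slit2. In the fit with length and GC trends removed they stood at -0.33, -0.25 and -0.21, in that order, and none passed the test.

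Robo receptors, through which Slits signal, did not pass the edgeR test in any of the 4 cases, nor the DESeq2 test, and Robo2 alone had an unadjusted p under 0.05. Robo2, the most abundant by CPM, was at 82.0 and 74.6 CPM in the control mice and 86.6 and 95.1 CPM in the surgery mice, a log2 fold change of 0.21 (SE 0.083, edgeR adjusted p = 0.11). Both surgery mice lay above both control mice, but the log2 fold change turned to -0.18 with length and GC trends removed. Robo1 was close to level at 0.03, Robo3 was at -0.33 and Robo4, a Robo known from endothelium, at -0.40 on the log2 scale. Robo3 was high in control 1 alone, and its log2 fold change was 0.12 without control 1 and -0.69 (edgeR adjusted p = 0.015) without control 2. The family median was -0.15, and it changed sign, to 0.08, when control 1 was left out.

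Eph receptors are the largest family of receptor tyrosine kinases, and the B-type receptors had a family median of -0.44, which was -0.23 without surgery 2. Ephb6 (chr6:41605482-41620509), a member without kinase activity, stood at 134 and 123 CPM in the control mice and 86.2 and 88.2 CPM in the surgery mice. These groups were well apart, with a log2 fold change of -0.56 (SE 0.070, edgeR adjusted p = 0.0049). Ephb3 fell by 0.51 on the log2 scale (edgeR adjusted p = 0.021), a call that was lost without control 1 (adjusted p = 0.072) or surgery 2 (adjusted p = 0.075). Ephb2 was at -0.44 and Ephb1 at -0.25 without passing the test. They were at -0.23 and -0.06 without surgery 2, and at -0.69 and -0.48 without surgery 1. Ephb4, known from vessels, was at 0.41. Ephb4 was high in surgery 2 alone, at 13.2 CPM against 7.26 to 8.48 CPM in the other mice, and its log2 fold change was -0.03 without that mouse. In surgery 2 the endothelial markers also summed to more, 310.2 CPM against 212 to 232 CPM, and the mural cell markers to 371 CPM against 193 to 234 CPM. Within these lists Cldn5 was higher in control 1 (40.4 CPM) than in surgery 2 (34.8 CPM), and Kcnj8 higher in control 2 (4.92 against 4.50 CPM). Robo4 and Plxnd1, also known from vessels, were at 11.6 and 46.1 CPM in surgery 2, below control 2 (15.0 and 54.1 CPM). The part of the endothelial and mural markers in the Ephb4 level was not tested.

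The A-type receptors had a median of 0.04. Epha4, the most abundant Eph receptor of these libraries per kilobase and a known regulator of dendritic spines, was at 348 and 305 CPM in the control mice and 347 and 326 CPM in the surgery mice. Its groups overlapped, with a log2 fold change of 0.04 (SE 0.079, edgeR adjusted p = 0.73). Epha6 (chr16:59653483-60605531) was at 67.7 and 62.0 CPM in the control mice and 51.6 and 52.7 CPM in the surgery mice. It fell by 0.31 on the log2 scale (SE 0.079, edgeR adjusted p = 0.031), and Epha10 by 0.31 (adjusted p = 0.021). Both calls were lost without control 1 or surgery 1, that of Epha6 also without surgery 2 and that of Epha10 without control 2, with adjusted p of 0.063 to 0.12. Epha6 was the only one of the 12 members that fell with a transcript GC content (48.0%) below 53%, and the only one whose log2 fold change moved further from 0, to -0.40 (adjusted p = 0.061), in the fit with length and GC trends removed. Of the others, Epha5, Epha7, Epha3 and Epha1 were at 0.16, 0.19, 0.07 and 0.69, and Epha2 and Epha8 at -0.11 and -0.04. With the trends removed, Epha5, Epha7 and Epha3 turned to -0.38, -0.23 and -0.35. Epha1 had the lowest level of the 60 members, at 0.657 to 1.30 CPM.

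Among the ephrins, Efna5 (chr17:62604184-62881317) rose and Efnb3 (chr11:69554092-69560205) fell. Efna5 is a GPI-anchored ligand of the A-type receptors. It stood at 5.46 and 5.42 CPM in the control mice and 8.40 and 8.47 CPM in the surgery mice, a log2 fold change of 0.63 (SE 0.17, edgeR adjusted p = 0.038). The mice within each group were nearly equal, yet the counts are low, and the adjusted p was 0.11 in DESeq2 and 0.094 to 0.14 when any 1 mouse was left out of the edgeR fit. Efna3, the most abundant A-type ephrin, was at 42.4 and 44.0 CPM in the control mice and 36.7 and 34.4 CPM in the surgery mice, which did not overlap (log2 fold change -0.28, SE 0.084, edgeR adjusted p = 0.052). Part of Efna3 (14.1% of its exon bases) lies opposite another gene, and the counting of strand is not given in the sources used here.

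Efnb3, a transmembrane ephrin, was by far the most abundant ephrin per kilobase. It stood at 237 and 222 CPM in the control mice and 187 and 173 CPM in the surgery mice, a fall of 0.35 on the log2 scale (SE 0.068, edgeR adjusted p = 0.014). Its groups were apart. The remaining ephrins did not pass: Efna1 was at -0.43, Efna2 at 0.06, Efnb1 at 0.07 and Efnb2 at 0.24. The value of Efnb2 was 0.02 without surgery 2 and 0.42 without surgery 1.

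Class 3 semaphorins are secreted, and they included both semaphorins that rose. Sema3d (chr5:12383385-12588948) stood at 3.89 and 5.14 CPM in the control mice and 7.21 and 12.9 CPM in the surgery mice, a log2 fold change of 1.15 (SE 0.32, edgeR adjusted p = 0.041). Sema3a (chr5:13125414-13602565), a ligand that repels and collapses growth cones, stood at 2.67 and 2.79 CPM in the control mice and 4.51 and 7.35 CPM in the surgery mice (log2 fold change 1.12, SE 0.30, edgeR adjusted p = 0.038). For both genes the surgery mice lay above both control mice, and surgery 2 was the highest of all. Surgery 2 is also the mouse with the high sum of meningeal fibroblast markers, of which all 5 were detected. Without surgery 2 the log2 fold changes were 0.73 for Sema3a (adjusted p = 0.16) and 0.68 for Sema3d (adjusted p = 0.14). Without surgery 1 they were 1.41 and 1.49, with adjusted p of 0.0089 and 0.0047. Leaving out either control mouse also lost both calls, with adjusted p of 0.059 to 0.11. What the meningeal markers contribute to these levels was not tested.

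The other class 3 semaphorins did not pass the test. Sema3e, the most abundant of the class, was at 63.8 and 52.8 CPM in the control mice and 57.4 and 66.2 CPM in the surgery mice, which overlapped (log2 fold change 0.08, SE 0.12, edgeR adjusted p = 0.64). Sema3b and Sema3f, named after their values were seen, varied most between the control mice. Sema3b was at 3.54 and 24.0 CPM in the control mice and 6.08 and 16.2 CPM in the surgery mice, with a log2 fold change of -0.31, which was 1.65 without control 2 and -1.11 without control 1. Sema3f was at 6.04 and 16.8 CPM in the control mice and 6.90 and 8.06 CPM in the surgery mice, with a log2 fold change of -0.62, which was 0.31 without control 2 and -1.17 (edgeR adjusted p = 0.0087) without control 1. Over the 4 mice both had the same order as the sum of the choroid plexus markers, which was 126 and 5387 CPM in the control mice and 2021 and 3434 CPM in the surgery mice, with all 5 markers detected and led by Ttr, the transthyretin gene. The part of choroid plexus tissue in these levels was not tested. Sema3c was at 0.16 and Sema3g at -0.13 on the log2 scale.

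**Figure D2:**
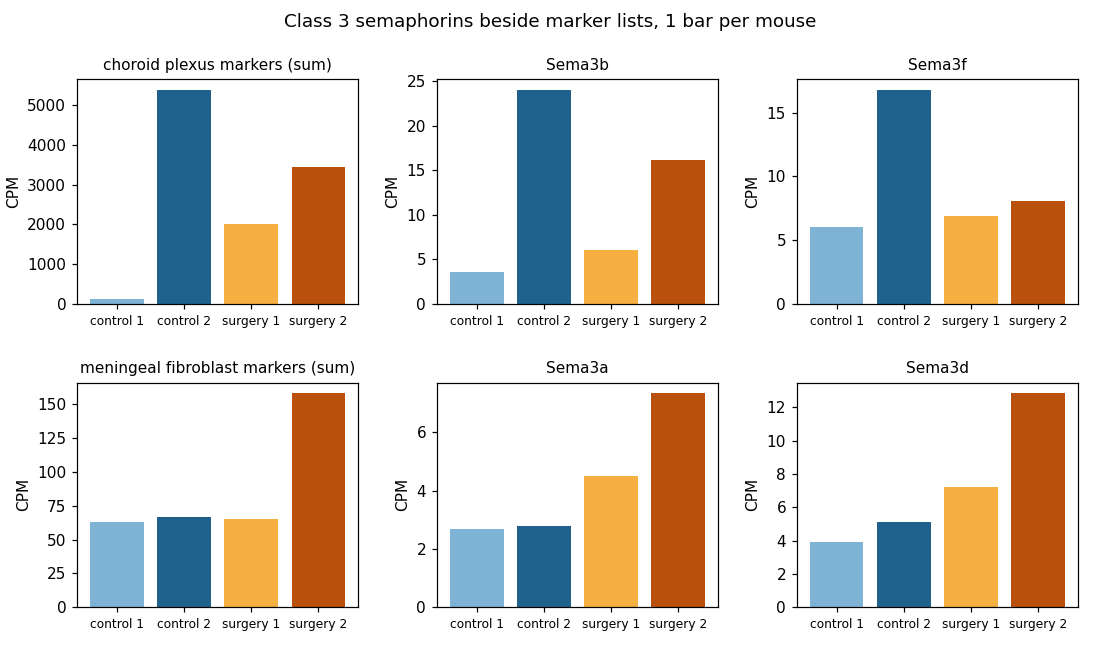
Bars give CPM in each of the 4 mice for the summed choroid plexus markers beside Sema3b and Sema3f (top row) and for the summed meningeal fibroblast markers beside Sema3a and Sema3d (bottom row). Control 1 is lowest in all 3 panels of the top row, and surgery 2 is highest in all 3 panels of the bottom row.

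Class 4, 6 and 7 semaphorins are membrane-bound and contained the 4 semaphorins that fell. Sema7a (chr9:57940112-57962865), the GPI-anchored member that signals through integrins and Plxnc1, stood at 201 and 175 CPM in the control mice and 134 and 131 CPM in the surgery mice. Its log2 fold change was -0.50 (SE 0.081, edgeR adjusted p = 0.0078), with the groups apart. Plxnc1, its plexin receptor, was at 58.9 and 55.9 CPM in the control mice and 55.2 and 66.1 CPM in the surgery mice, a log2 fold change of 0.08 (SE 0.10, edgeR adjusted p = 0.60).

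Sema6b (chr17:56123085-56140343), which binds class A plexins, stood at 189 and 195 CPM in the control mice and 137 and 136 CPM in the surgery mice. It fell by 0.49 on the log2 scale (SE 0.059, edgeR adjusted p = 0.0047), again without overlap. Its transcript had the highest GC content of all 60 members, 63.5%, and its log2 fold change was -0.14 (adjusted p = 0.24) with length and GC trends removed. Its class relatives Sema6a, Sema6c and Sema6d were at 0.01, -0.25 and 0.20 and did not pass.

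In class 4, Sema4f (chr6:82911885-82939769) stood at 78.8 and 76.0 CPM in the control mice and 58.2 and 60.3 CPM in the surgery mice, a log2 fold change of -0.39 (SE 0.070, edgeR adjusted p = 0.011). Sema4d, a ligand of Plxnb1, fell by 0.26 (adjusted p = 0.047), a call that was lost in DESeq2 (adjusted p = 0.079) and when any 1 mouse was left out, with adjusted p of 0.057 to 0.21. Sema4b, Sema4c and Sema4g were at -0.30, -0.12 and -0.27 without passing, and Sema4a at 0.01. The transmembrane class 5 members, which carry thrombospondin repeats, did not pass: Sema5a was at 128 and 110.5 CPM in the control mice and 138 and 119 CPM in the surgery mice (log2 fold change 0.11, SE 0.10, edgeR adjusted p = 0.48), and Sema5b was at -0.50 (edgeR adjusted p = 0.052, DESeq2 adjusted p = 0.041).

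Plexins, the semaphorin receptors, were negative in 8 of 9 cases, with a median of -0.30, and 1 passed the test. Plxna1 (chr6:89316314-89362620) stood at 214 and 238 CPM in the control mice and 160 and 167 CPM in the surgery mice, a log2 fold change of -0.47 (SE 0.072, edgeR adjusted p = 0.0072). The groups were apart. More than 10% of its exon bases lie opposite another gene. Plxna4, the most abundant plexin by CPM, was at 258 and 254 CPM in the control mice and 237 and 204 CPM in the surgery mice, without overlap but short of the threshold (log2 fold change -0.22, SE 0.081, edgeR adjusted p = 0.095). Plxna2 and Plxna3 were at -0.05 and -0.33.

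In class B, Plxnb1 was at 153 and 183 CPM in the control mice and 139 and 133 CPM in the surgery mice (log2 fold change -0.30, SE 0.094, edgeR adjusted p = 0.058, DESeq2 adjusted p = 0.018). Plxnb2 was at -0.32, with control 2 alone high, and its log2 fold change was 0.01 without control 2 and -0.59 (edgeR adjusted p = 0.0085) without control 1. In the same class Plxnb3, a plexin known from oligodendrocytes, was at -0.39, which was -0.12 without surgery 2 and -0.73 without surgery 1. Plxnb3 was lowest in surgery 2, at 34.0 CPM against 51.0 to 60.3 CPM in the others. In that mouse the oligodendrocyte markers also had their lowest sum, 3927 CPM against 5329 to 6183 CPM. Their part in the Plxnb3 level was not tested. Plxnd1, known from vessels, was at 48.3 and 54.1 CPM in the control mice and 37.9 and 46.1 CPM in the surgery mice, without overlap and short of the threshold (log2 fold change -0.28, SE 0.12, edgeR adjusted p = 0.12).

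Netrins, the ligands of DCC and UNC5 receptors, were all below 0, and none of the 3 passed the edgeR or the DESeq2 test, with an unadjusted p under 0.05 for Ntn5 alone. Ntn1 was at 13.6 and 13.2 CPM in the control mice and 10.8 and 14.0 CPM in the surgery mice, which overlapped (log2 fold change -0.11, SE 0.16, edgeR adjusted p = 0.66). Ntn5, whose exons overlap another gene, was at -0.57 (edgeR adjusted p = 0.051) and Ntn4 at -0.08. Ntn1 and Ntn4 turned to 0.05 and 0.14 without surgery 1.

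**Figure D3:**
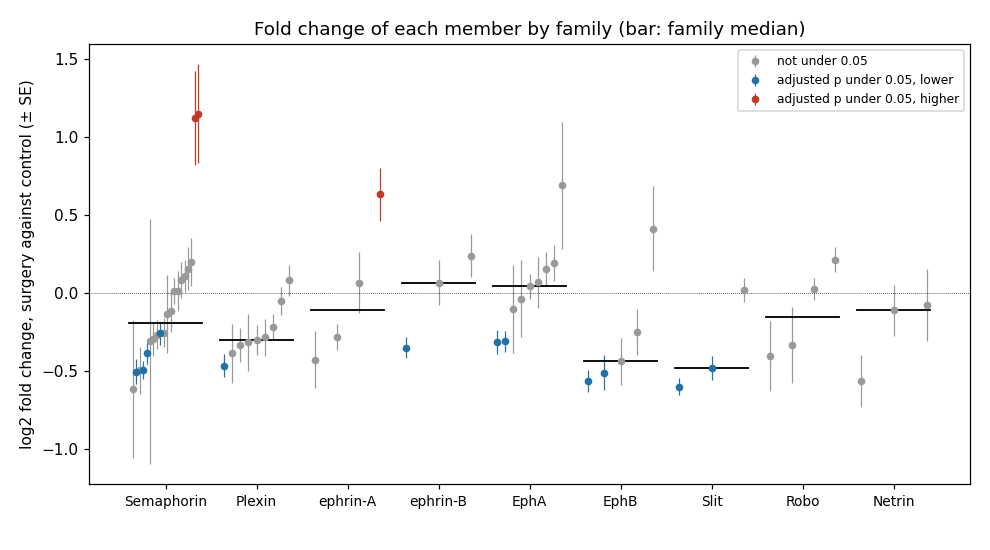
Fitted log2 fold change of each tested member, surgery against control, with its standard error, ordered within each of the 9 families. Bars mark family medians, which run from -0.48 in the Slits to 0.07 in the B-type ephrins, and color marks the 3 members that rose and the 12 that fell.

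Fold change followed transcript GC content in these libraries, over members and over all genes alike. Members were GC-rich, with a median of 56.1% for the longest transcript against 49.6% over all genes with a value. Across the 60 members, the Spearman rank correlation of log2 fold change with GC content was -0.63, and across 17120 genes it was -0.63 (a description over genes of the same 4 libraries, which are not independent replicates). Between the 2 control mice the same correlation was 0.22 over the members, and between the 2 surgery mice it was 0.07. When all genes were divided into 8 equal parts by GC content, the median log2 fold change ran from 0.59 in the lowest part to -0.34 in the highest.

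Of the 60 members, 23 fell in the highest part and 4 in the lowest. In the highest part the members' median was -0.32 and 8 of 23 fell, where 38.4% of all genes there fell. In the lowest part the members' median was 0.66 and 2 of 4 rose, Sema3a and Sema3d, where 50.1% of all genes there rose. Efna5 lay in the next part, with a GC content of 44.8%, where 30.9% of all genes rose. Set against the median of the genes in its own part, each member lay above in 24 cases and below in 36, with a median difference of -0.05 on the log2 scale. Epha6, which fell, lay in the fourth part, where 5.05% of all genes fell, and its log2 fold change was 0.36 below the median of that part. The GC trend and the group cannot be told apart with these 4 libraries.

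**Figure D4:**
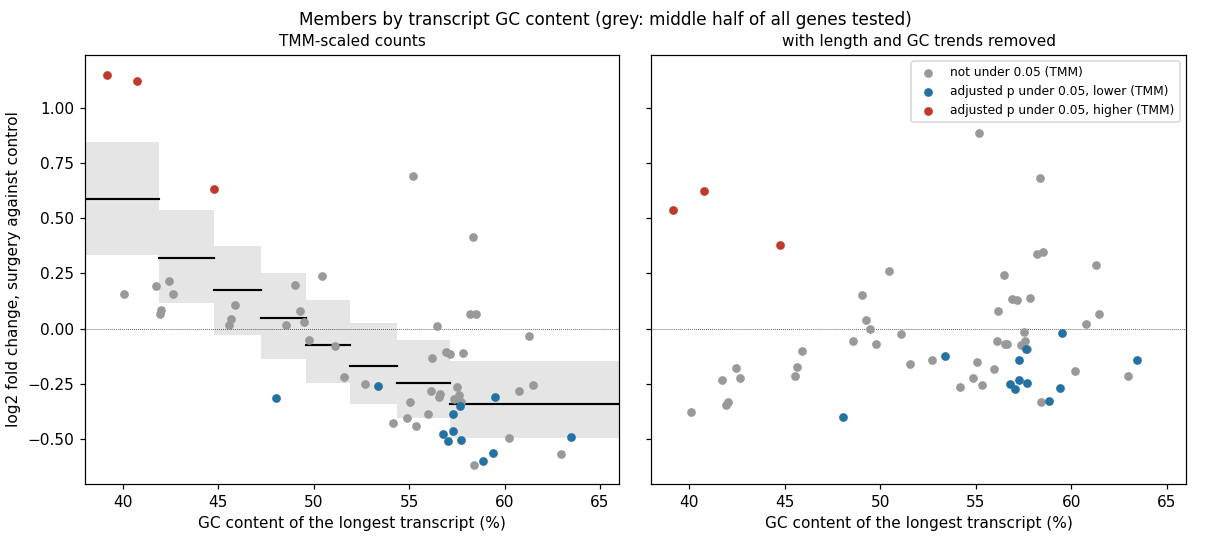
Log2 fold change of each tested member against the GC content of its longest transcript, before (left) and after (right) removing each library's length and GC trends, with members colored by their call before removal. On the left, black steps and grey boxes give the median and interquartile range of all genes in 8 equal GC parts, the outermost drawn only to the edge of the axis, and the 3 members that rose lie at 39.2% to 44.8% GC.

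By family, removing the trends moved the medians toward 0 in the semaphorins (-0.19 to -0.07), plexins (-0.30 to -0.07), B-type receptors (-0.44 to -0.25) and Slits (-0.48 to -0.25). It turned the sign of 2 families: the A-type receptors went from 0.04 to -0.18 and the A-type ephrins from -0.11 to 0.14. In the B-type ephrins the median rose from 0.07 to 0.26, and the Robo receptors (-0.15 to -0.14) and netrins (-0.11 to -0.02) stayed below 0. Among members not called in either fit, Epha1 at 0.89 and Ephb4 at 0.68 lay highest in the fit without trends.

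Other genes of these pathways, 65 in all and all tested, were listed by role as co-receptors, other cues and signaling proteins. Of these 65 genes, 13 rose and 14 fell, both larger shares than the 13.1% and 12.8% of all genes tested. Their median was -0.12. The largest rises were in signaling proteins. Rock1, a kinase that acts on the actin cytoskeleton, went from 19.7 and 18.3 CPM in the control mice to 42.6 and 43.0 CPM in the surgery mice, a log2 fold change of 1.17 (edgeR adjusted p = 0.0042). Rasa1, a Ras GTPase activator acting below Eph receptors, was at 0.85, Rock2 at 0.79, Vav3, a guanine nucleotide exchange factor, at 0.77 and Adam10, a protease that cleaves ephrins, at 0.51. The largest falls were Unc5a, a netrin receptor, at -0.60, Limk1, a kinase of cofilin, at -0.47, Dcc, the netrin receptor, at -0.46, Dscam, a receptor for netrins, at -0.45 and Rgmb, a ligand of neogenin, at -0.43. The call of Dcc was at the threshold (edgeR adjusted p = 0.050), and it was lost in DESeq2 (adjusted p = 0.069), with library totals only (0.071) and without control 1 (0.073), control 2 (0.17) or surgery 1 (0.15).

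Neuropilins, the co-receptors of most class 3 semaphorins, did not pass: Nrp1 was at 0.02 and Nrp2 at 0.11. They were at -0.39 and 0.15 with length and GC trends removed, again without passing. With length and GC trends removed, 1 listed gene rose, Rock1 at 0.64 (edgeR adjusted p = 0.033), beside 0.689% of all genes. The 3 that fell, beside 1.73% of all genes, were Dcc at -0.76 (adjusted p = 0.043), Rgmb at -0.54 (adjusted p = 0.047) and Kalrn at -0.46 (adjusted p = 0.043). Kalrn is an exchange factor acting below EphB receptors in spines.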

How the data were processed

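RNA from the hippocampus of 2 control and 2 surgery mice was selected with oligo(dT) and sequenced in pairs of 150 nt reads. Clean reads were aligned by the authors to mm10 (HISAT), and the deposited values are raw read counts per gene, used here without change. The submitters' processing notes name HISAT2 2.1.0, HTSeq 0.6.0, Bowtie2 2.2.3 and TopHat2. Strand use and annotation are not given in the sources used here. The authors' own comparison columns (mean signal, fold change, its log2, p-values and marks) were not used.

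Genes were filtered by filterByExpr (minimum count 10), scaled by TMM (factors 0.982 to 1.02) and tested in edgeR 4.0.16 (R 4.3.3) by the quasi-likelihood F test on group alone, with Benjamini-Hochberg adjustment over 17144 genes. Standard errors are the log2 fold change over the square root of F. CPM values are scaled to the library totals after TMM. The procedure was tested on simulated data. Transcript length, GC content and overlaps are from GENCODE M21 (longest transcript). Trends of each library with both were fitted with mgcv 1.9.3 (basis size 8) and entered as offsets for the 17120 genes with values. Gene coordinates are those of the deposited table.

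Members and lists were chosen with earlier results of these data known. Given in full were, in each family or class, the member with the highest mean CPM and the called members with the largest rise and fall. Other called members are given by log2 fold change, as are up to 5 rises and 5 falls of the pathway list. Slit3 and Sema3a are given with their values in each mouse beyond this rule, chosen after these were seen. Replicates differed by more than sampling noise (chi-square per degree of freedom 12.3 in control and 7.77 in surgery mice). Alternatives were DESeq2 1.42.0, other scalings, filters, gene sets and thresholds, a replicate block, trend removal and leaving out each mouse.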

Additional observations from a re-analysis of the deposited data

How the results depend on the processing

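Of the 60 members, 12 fell and 3 rose in the analysis reported. The counts were 13 and 2 with DESeq2 (beside 12.3% and 10.7% of all genes), 11 and 3 with library totals only (10.6% and 15.5%), 14 and 3 with RLE factors (13.3% and 12.8%), 11 and 3 of 58 at a minimum count of 50 (15.7% and 18.8%) and 11 and 3 with protein-coding genes only (13.2% and 15.3%). Without a filter on low counts they were 8 and 0 of 61 (4.61% and 4.49%), and 5 and 8 pathway genes rose and fell. With the fold thresholds 1 member fell and 3 rose, beside 2.25% and 6.75% of all genes, and 4 pathway genes rose and 1 fell. With length and GC trends removed, 0 members fell and 0 rose, beside 1.73% and 0.689% of all genes. In that fit 1 pathway gene rose and 3 fell.

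With the replicate number as a replicate block, 22 members fell and 4 rose, beside 15.3% and 15.5% of all genes, and the median of the semaphorins was -0.13. Of the 9 plexins 6 fell (Plxna1, Plxna3, Plxna4, Plxnb1, Plxnb3 and Plxnd1), and Epha7 was among the 4 that rose, although it fell in the fit with the trends removed as well. The labels do not say that equal numbers share a batch or litter, and the correlation of the deviations of control 1 and surgery 1 was 0.22. With the replicate block and the trends removed together, 7 members fell (Epha5, Epha6, Epha7, Ephb6, Plxna1, Sema7a and Slit1), beside 9.07% of all genes, and 0 rose, beside 4.07%, while 5 pathway genes rose and 11 fell. In that fit the medians were -0.061 for semaphorins, -0.073 for plexins, -0.17 for EphA, -0.27 for EphB, 0.14 for A-type ephrins, 0.25 for B-type ephrins, -0.11 for Robo, -0.25 for Slits and -0.067 for the pathway list. With the trends removed alone they were -0.068, -0.073, -0.18, -0.25, 0.14, 0.26, -0.14, -0.25 and -0.068 in the same order.

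Leaving out each mouse in turn gave 11 to 15 members that fell and 0 to 4 that rose. None rose without control 1, control 2 or surgery 2. In these fits a group with 1 mouse is assumed to vary like the other. Of the 12 falls, 8 kept their call in all 4 fits (Slit1, Slit3, Ephb6, Sema6b, Sema7a, Plxna1, Sema4f and Efnb3), while Ephb3, Epha6 and Epha10 lost it in some and Sema4d in all. Without control 2 the semaphorin median was -0.065, without surgery 1 it was -0.042 and without surgery 2 the EphB median was -0.23. The ranges of the family medians were -0.23 to -0.042 for semaphorins, -0.37 to -0.19 for plexins, -0.0049 to 0.11 for EphA, -0.56 to -0.23 for EphB, -0.15 to 0.16 for A-type ephrins, -0.060 to 0.17 for B-type ephrins, -0.11 to 0.077 for Robo, -0.56 to -0.41 for Slits and -0.36 to 0.051 for netrins. In the pathway list the median was -0.13 to -0.094 over these fits. The Robo median was -0.11 and the pathway median -0.069 with library totals only, the pathway median was -0.086 at the minimum count of 50 and -0.090 with protein-coding genes only, and the A-type ephrin median was 0.054 without the filter. With library totals only the median of all genes moved as well, from 0.012 to 0.060. Without the filter the A-type ephrin median was the value of Efna2, with Efna4 tested as well. The cause of the other moves was not tested. Only 2 mice a group and low counts of Sema3a, Sema3d, Efna5 and Epha1 limit what can be called.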
